A study of Mus musculus with 2 samples.

Results

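The common gamma chain group comprised 10 of the 31053 genes in the tables, chosen by gene symbol and with earlier results of these data known. They were the cytokine genes *Il2*, *Il7*, *Il15* and *Il21* and the receptor genes *Il2ra*, *Il2rb*, *Il2rg*, *Il7r*, *Il15ra* and *Il21r*, and all 10 were read in 11429 cells of a young and 10232 cells of an old library. The common gamma chain, encoded by *Il2rg*, is the subunit that the receptors of all of these cytokines share, and it signals through JAK3 to the STAT factors. IL-2 is best known as a T-cell product that binds with high affinity where the alpha chain (CD25, *Il2ra*) joins the beta (CD122, *Il2rb*) and gamma chains, as on regulatory T cells and group 2 ILCs (ILC2s), which it sustains. IL-7 comes mainly from stromal and epithelial cells and sustains T cells and innate lymphoid cells (ILCs), IL-15 is held on the surface of its source by IL-15Rα and sustains NK and CD8 T cells, and IL-21 is a product of helper T cells that acts on B cells and plasma cell formation.

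The experiment was single-cell RNA-seq of kidney cells of MRL-*lpr* mice, a strain with spontaneous lupus-like nephritis, and addressed how kidney ILCs, ILC2s above all, differ between young and old mice of this strain. It comprised 1 library of pooled kidneys from old mice and 1 from young mice, with no treatment, and the mice of both ages carry the *lpr* mutation of *Fas*, so neither group has an intact *Fas* gene. Kidney cells had been spun on a Percoll gradient, enriched for ILCs with magnetic beads and sorted as live cells, and the share of a class is therefore not its frequency in the kidney. With 1 library per age there is no spread between mice, no test was possible between ages, and every ratio compares these libraries rather than the ages.

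Kept cells had at least 200 genes and at most 20% mitochondrial unique molecular identifiers (UMIs), with a median of 7881 UMIs per cell in the young and 6933 in the old library. The methods describe female mice unless stated otherwise, but UMIs of Y-linked genes without *Xist* were present in 50.8% of young and 40.6% of old cells, and *Xist* without Y-linked UMIs in 14.6% and 29.1%. Ratios are therefore also given within both sets of cells where they differ from those of all cells. The libraries shared 41 barcodes, of which 26 were among the kept cells, and Scrublet called 2.87% of young and 2.40% of old cells doublets, which were kept.

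Cells were placed in classes by gates on lineage markers, none of which was a member of the group, and a class is called ILC2-like, for example, because only RNA defines it. Expression is given as CPM (counts per 1000000 UMIs), for which the summed UMIs of a gene in a class are scaled to the total of that class. Brackets hold exact Poisson 95% intervals for CPM and exact Clopper-Pearson 95% intervals for shares, and all intervals cover counting error only. ILC2-like cells (1576 young and 355 old) had *Areg*, *Gata3* and *Il1rl1* among their leading genes, but these are markers of the ILC2 gate. Their rank thus follows from the gate. The T-cell gates gave 101 young and 1065 old CD4 T-like, 154 and 1129 CD8 T-like, and 30 and 112 regulatory T-like cells with *Foxp3*. The gate for T cells without coreceptors held 190 young and 1592 old cells. In the old library *Myb*, *Meg3* and *Eomes* led it, where *Eomes* had 548 CPM against 29.4 CPM in the young library. Its values are given side by side without a ratio. This gate takes T-like cells with no UMI of *Cd4*, *Cd8a*, *Cd8b1* or *Foxp3*, at medians of 4336.5 and 3842.5 UMIs per cell. CD4, CD8 or regulatory T cells whose transcripts were missed can thus fall into it, and their part was not tested. In the same way, regulatory T cells without a *Foxp3* UMI can fall into the CD4 T-like class. The gamma-delta T-like, dendritic-like, endothelial-like and erythroid-like classes are described in the young library, and the plasma-like class in the old library, because fewer than 20 cells passed in the other.

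The promoters of *Il2* and *Il21* are shown because these genes carried the clearest differences between classes and libraries and lie next to each other, 96.8 kb apart, on chromosome 3. Both are on the minus strand of GRCm38, *Il2* (ENSMUSG00000027720) at chromosome 3, 37120523 to 37125959, and *Il21* (ENSMUSG00000027718) at chromosome 3, 37222759 to 37232636. The 250 bases before each start site, from RefSeq on GRCm38.p6, are printed 5′ to 3′, and capitals mark the core GGAAA, or TTTCC on the other strand, that the calcium-driven factor NFAT binds.
Il2 promoter, chr3:37125955-37126204, minus strand: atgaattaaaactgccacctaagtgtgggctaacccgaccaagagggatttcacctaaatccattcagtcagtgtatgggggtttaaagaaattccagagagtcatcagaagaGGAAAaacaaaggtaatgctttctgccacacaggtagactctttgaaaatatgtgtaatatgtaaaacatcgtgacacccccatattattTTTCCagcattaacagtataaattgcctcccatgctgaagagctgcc
Il21 promoter, chr3:37232637-37232886, minus strand: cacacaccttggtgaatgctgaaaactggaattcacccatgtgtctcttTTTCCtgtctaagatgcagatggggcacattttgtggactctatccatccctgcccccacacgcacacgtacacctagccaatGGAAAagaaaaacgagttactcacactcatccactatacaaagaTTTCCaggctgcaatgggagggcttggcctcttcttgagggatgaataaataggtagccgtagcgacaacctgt
The matches began 137 and 47 bases before the start site of *Il2* and 201, 118 and 74 bases before that of *Il21*. Searched over 250 bases before to 50 after the start site and on both strands, 61.3% of 32851 RefSeq promoters held this core, so its presence is common. Neither promoter held the letters TGANTCA for AP-1 (7.81% of promoters), GATAA or TTATC for GATA factors (25.4%) or TTCNNNGAA for STAT5 (8.3%), and a match or its absence is a description of these letters only. The table held windows for 7 of the 10 members, without *Il2rb*, *Il7* and *Il15*.

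*Il2* was highest in young ILC2-like cells, at 61.0 (55.9–66.4) CPM, and was lower in every other class described. These cells held 530 of the 761 *Il2* UMIs of the young library, or 69.6%, in 290 cells, of which 174 had 1 UMI, 62 had 2, 46 had 3 to 5 and 8 had 6 or more. In old ILC2-like cells *Il2* had 14.8 (9.97–21.1) CPM, from 30 UMIs in 24 cells, or 9.43% of the 318 *Il2* UMIs of the old library. The level was 4.13-fold lower in the old library (log2 ratio −2.05, exact binomial 95% interval −2.63 to −1.51), and the intervals of the libraries did not overlap. Of the ILC2-like cells, 18.4% (16.5–20.4%) in the young library and 6.76% in the old had an *Il2* UMI, at medians of 5129.5 and 5432 UMIs per cell. After each cell was thinned to 1000 UMIs, these shares were 5.71% and 2.0%. The log2 ratio was −3.30 in cells with *Xist*, where the old library had 4 *Il2* UMIs, and −1.88 in cells with Y-linked UMIs.

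CD4 T-like cells, the textbook source of IL-2, had 13.3 (5.35–27.4) CPM of *Il2* in the young library, from 7 UMIs, and 12.5 (9.85–15.6) CPM in the old library, from 77 UMIs. The level in ILC2-like cells was thus 4.58-fold that of CD4 T-like cells in the young library and 1.18-fold in the old library, where the interval of the log2 ratio, −0.42 to 0.87, included 0. In the old library the CD4 T-like cells held the largest part of the *Il2* UMIs of any class, 24.2%, followed by proximal tubule-like (PT-like) cells. CD8 T-like cells had 2.18 CPM from 2 UMIs in the young library, and 4.96 (3.55–6.76) CPM from 40 UMIs in the old. T-like cells without coreceptors had 11.5 (5.76–20.6) and 4.54 (3.1–6.41) CPM, and regulatory T-like cells had 5.06 and 4.24 CPM from 1 and 3 UMIs.

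PT-like cells, which are not known to make IL-2, were taken as background. They had 88 *Il2* and 83 *Il7r* UMIs in the young library, where ILC2-like cells had 530 and 6542. In the old library PT-like cells had 65 and 35, and ILC2-like cells 30 and 1975. The source of the *Il2* UMIs in PT-like cells was not tested. Their *Il2* was at 0.787 CPM in the young library and at 0.998 CPM in the old, and each of the 88 young and 65 old PT-like cells with an *Il2* UMI had exactly 1. Thinned to 1000 UMIs, an *Il2* UMI remained in 0.0826% of young and 0.0868% of old PT-like cells, so the shares in ILC2-like cells of both libraries lay above this background. NK or ILC1-like, B-like and monocyte-like cells had 3 or fewer *Il2* UMIs in each library, and their intervals overlapped the level in PT-like cells.

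**Figure D1:**
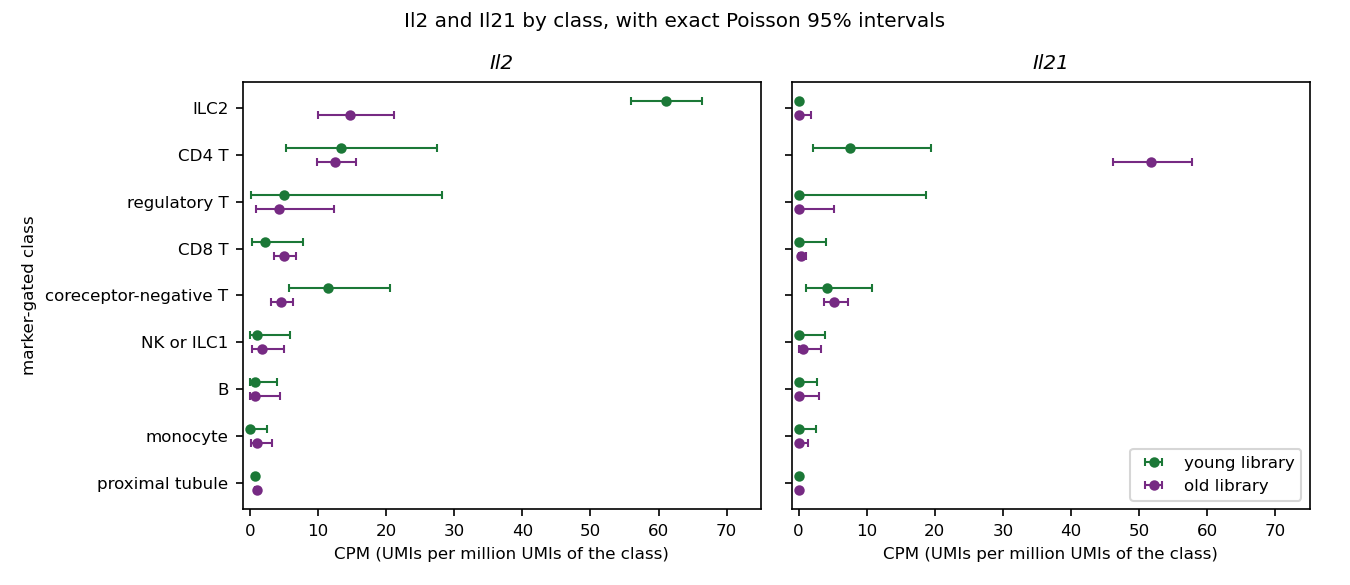
Levels of *Il2* (left) and *Il21* (right) in 9 classes, in CPM on a linear axis from 0, with points for the young (green) and old (purple) library and bars for exact Poisson 95% intervals. Young ILC2-like cells stand alone for *Il2* at 61.0 CPM, and old CD4 T-like cells stand alone for *Il21* at 51.7 CPM.

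Young ILC2-like cells with an *Il2* UMI (290 cells, median 5817 UMIs) were somewhat deeper than those without (1286 cells, median 5013 UMIs), so shares of other genes are given thinned. *Csf2*, which encodes GM-CSF, was found in 17.9% (13.7–22.8%) of cells with and 14.9% (12.98–16.97%) of cells without *Il2*, and these intervals overlapped. *Il2ra* was found in 34.5% (29.0–40.3%) and 26.1% (23.7–28.6%) of them, and the proliferation gene *Mki67* in 2.76% (1.20–5.36%) and 0.788% (0.379–1.44%). The *Il2ra* intervals were apart, and the intervals of *Mki67* overlapped slightly. *Il5* and *Il13* are markers of the ILC2 gate, and among young ILC2-like cells the 425 with a UMI of either had 84.7 CPM of *Il2* against 50.5 CPM in the 1151 without. In the old library, the 60 cells with *Il5* or *Il13* had 13.6 CPM and the 295 without had 15.0 CPM, with 5 and 25 *Il2* UMIs.

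*Il21* was nearly absent from the young library, with 10 UMIs in 5 cells, whereas the old library had 424 UMIs in 166 cells and up to 15 UMIs in 1 cell. Old CD4 T-like cells had 319 of these, 75.2% of the total, at 51.7 (46.2–57.7) CPM, in 113 of 1065 cells. The young CD4 T-like cells had 7.61 (2.07–19.5) CPM from 4 UMIs in 3 of 101 cells, and the intervals of the libraries did not overlap. The level was 6.79-fold higher in the old library (log2 ratio 2.76, 1.39–4.65), and the log2 ratio was 2.04 with the mean of the CPM of each cell. It was 4.19 in cells with Y-linked UMIs, where the young library had 1 UMI. In cells with *Xist* the 15 young CD4 T-like cells had no *Il21* UMI against 109 UMIs in 388 old cells, which at a limit of 3 counts gives a log2 ratio of at least 0.24, less than 2-fold. The number of CD4 T-like cells, 101 and 1065, adds to the difference in UMI totals, which CPM does not count.

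Other classes had little *Il21*. Regulatory T-like and ILC2-like cells had no *Il21* UMI in either library, and a count of 0 in the 355 old ILC2-like cells allows up to 1.48 CPM at a limit of 3 counts. CD8 T-like cells had 0 UMIs in the young and 0.372 CPM from 3 UMIs in the old library, which placed old CD4 T-like cells 139-fold higher (log2 ratio 7.12, 5.56–9.40). T-like cells without coreceptors had 4.19 CPM from 4 UMIs in 1 young cell and 5.25 (3.69–7.23) CPM in 16 of 1592 old cells. PT-like cells had 0 and 1 *Il21* UMIs, B-like, myeloid-like and plasmacytoid dendritic-like cells had none, and old NK or ILC1-like cells had 1.

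Old CD4 T-like cells with an *Il21* UMI (113 cells, median 5803 UMIs) differed from those without (952 cells, median 5149.5 UMIs) in several genes. Thinned to 1000 UMIs, the chemokine gene *Ccl5* was found in 7.08% (3.11–13.5%) of cells with and 38.6% (35.5–41.8%) of cells without *Il21*, and its level was 449 against 4570 CPM. *Cxcr6*, a receptor of tissue-homing T cells, was found in 6.19% (2.53–12.3%) and 19.0% (16.6–21.7%). Both genes were lower with *Il21*, and the opposite held for *Pdcd1*, which encodes PD-1, with 19.5% (12.6–28.0%) and 8.56% (6.86–10.5%), and for *Cd40lg*, the ligand through which helper T cells activate B cells, with 23.0% (15.6–31.9%) and 11.8% (9.85–14.1%). The follicular helper genes *Cxcr5* and *Bcl6* were rare with and without *Il21*, in 4.42% and 5.57% of cells for *Cxcr5* and 9.73% and 6.20% for *Bcl6* before thinning. Thinned, *Bcl6* was in 1.77% and 1.797% of cells and *Cxcr5* in 0 of 113 (0–3.21%) and 0.74% of cells, with overlapping intervals. *Ifng* was found in 66.4% of cells with and 58.9% of cells without *Il21* before thinning, and in 23.9% (16.4–32.8%) and 27.7% (24.9–30.7%) after it, with overlapping intervals and levels of 448 and 469 CPM. Of the 113 cells with *Il21*, 4 also had an *Il2* UMI (3.54%), against 4.94% of the cells without, and after thinning the shares were 2.65% (0.551–7.56%) and 1.59% (0.8901–2.60%). For both genes the order turned with thinning, so no difference between cells with and without *Il21* is read from them.

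*Il7* (ENSMUSG00000040329; chromosome 3, 7569994 to 7613760, minus strand) was scarce, with 120 UMIs in the young and 142 in the old library. PT-like cells held 105 and 95 of these, at 0.939 (0.768–1.14) and 1.46 (1.18–1.78) CPM, a log2 ratio of 0.64 (0.22–1.05). Over all kept cells *Il7* was at 0.824 and 1.19 CPM. Other epithelium-like cells of the old library, gated on *Umod* and *Slc12a3* among other markers, had 2.93 (1.27–5.78) CPM from 8 UMIs. The 35 such cells of the young library had none. The 270 endothelial-like cells of the young library had no *Il7* UMI, which allows up to 2.09 CPM. B-like cells, taken as background, had no *Il7* UMI in the young library, which allows up to 2.18 CPM, and 1 UMI in the old, at 0.794 CPM. ILC2-like cells had 1 and 3 *Il7* UMIs, at 0.115 and 1.48 CPM. In the young library PT-like cells were above them by a log2 ratio of 3.03 (0.52–8.34), while the limit set by the B-like cells was too high to compare with. In the old library the level in PT-like cells and those in ILC2-like and CD4 T-like cells (1.13 CPM from 7 UMIs) did not differ beyond counting error. The stromal gate, the usual source of IL-7, found 1 cell in each library.

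*Il15* (ENSMUSG00000031712; chromosome 8, 82331632 to 82403222, minus strand) was the most widely detected cytokine gene. Its levels were highest in neutrophil-like, monocyte-like and tubule cells and in the endothelial-like cells of the young library. PT-like cells were at 22.3 (21.5–23.2) CPM in the young library and 22.2 (21.1–23.4) CPM in the old. These levels differed by a log2 ratio of −0.01 (−0.10 to 0.09). PT-like cells held 86.5% and 80.0% of all *Il15* UMIs. They also held most UMIs of all genes, 111828639 of 145647185 in the young library and 65145672 of 119218130 in the old. Over all kept cells *Il15* was at 19.8 and 15.2 CPM. Of the PT-like cells, 29.2% and 30.2% had an *Il15* UMI, and 2.38% and 2.29% after thinning. B-like cells, taken as background for genes that tubule cells may express, had 2.91 and 3.18 CPM from 4 UMIs each.

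Neutrophil-like cells had the highest *Il15* level, at 56.8 (36.7–83.8) CPM in the young library and 43.1 (31.0–58.2) CPM in the old, 2.54-fold and 1.94-fold that of PT-like cells. Monocyte-like cells had 24.3 (17.0–33.6) and 12.5 (8.63–17.4) CPM, a log2 ratio of −0.96 (−1.68 to −0.24). In the young library the order below neutrophil-like cells was endothelial-like (29.95 CPM), monocyte-like, PT-like, other epithelium-like (19.0 CPM), macrophage-like (16.2 CPM) and dendritic-like cells (12.4 CPM), and neighbours in this order had overlapping intervals. ILC2-like cells had 3.45 (2.33–4.93) and 6.90 (3.77–11.6) CPM, close to B-like cells, and plasmacytoid dendritic-like cells had no *Il15* UMI. Within PT-like cells, those with *Slc5a2*, the glucose transporter of the early tubule, and no *Slc7a13* had 26.3 (24.7–28.0) CPM of *Il15* in the young library and 25.7 (23.6–28.0) CPM in the old. Those with *Slc7a13*, an amino acid transporter of the late tubule, and no *Slc5a2* had 15.5 (14.1–16.9) and 17.2 (15.3–19.3) CPM. *Il15* was thus higher in the early than in the late tubule cells in both libraries, with intervals apart. Young PT-like cells had 25.0 (22.4–27.9) CPM with *Xist* and 23.5 (22.4–24.6) CPM with Y-linked UMIs. In the old library these levels were 27.7 (24.4–31.3) and 22.1 (20.7–23.5) CPM. Early and late cells were not compared within these sets.

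**Figure D2:**
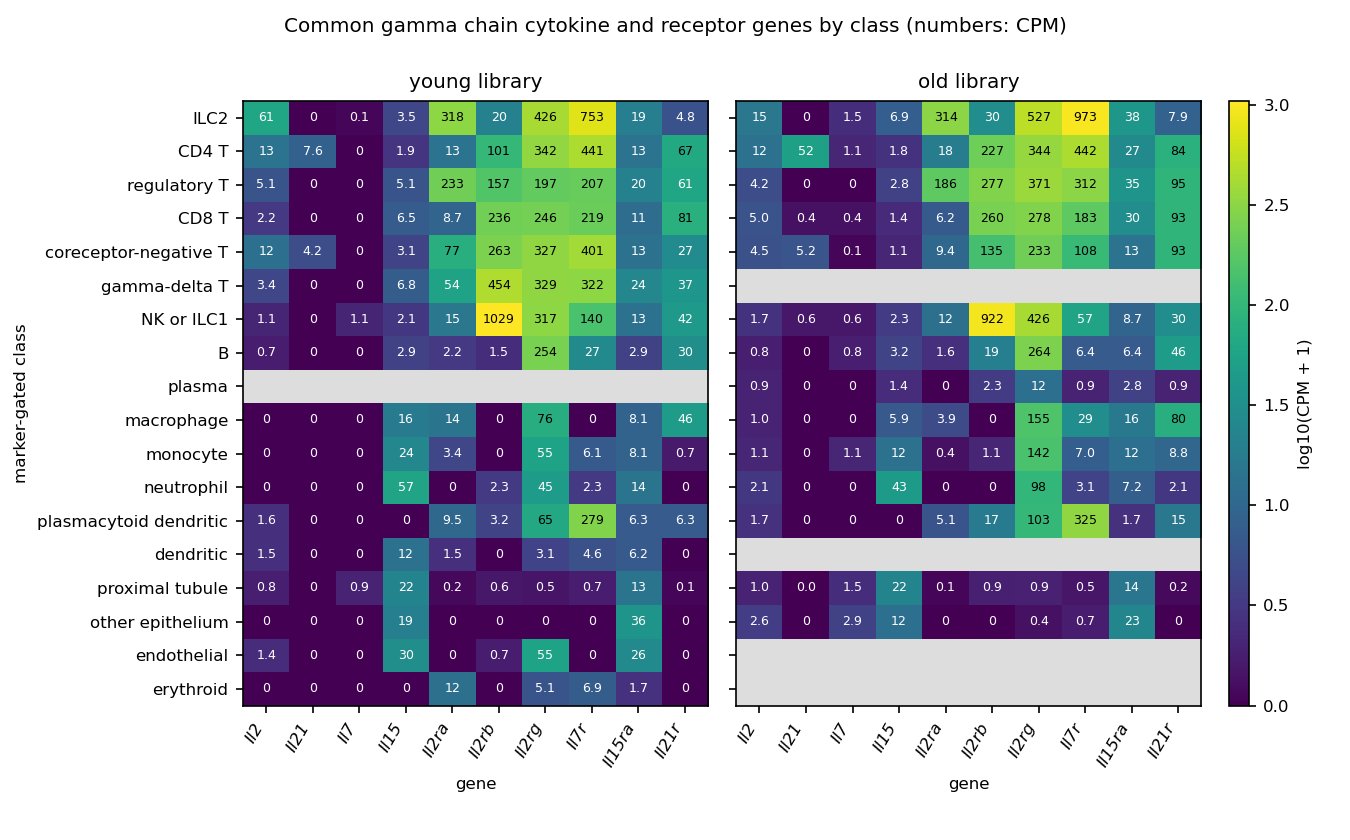
CPM of the 10 genes (columns) in the marker-gated classes (rows) of the young (left) and old (right) library, with colour on a log10(CPM + 1) scale, the CPM printed in each field and grey for classes of fewer than 20 cells. *Il7r* and *Il2ra* peak in ILC2-like cells, *Il2rb* in NK or ILC1-like cells, and *Il15* in neutrophil-like cells of both libraries.

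*Il2ra* (ENSMUSG00000026770; chromosome 2, 11642807 to 11693193, plus strand), the alpha chain that raises the affinity for IL-2, was highest in ILC2-like cells. Its level was 318 (306–330) CPM in the young library and 314 (290–339) CPM in the old, and 72.5% and 73.0% of cells had a UMI, or 27.6% and 25.7% after thinning. The libraries did not differ beyond counting error in this class (log2 ratio −0.02, −0.14 to 0.11). Regulatory T-like cells, in which CD25 is a classical marker, had 233 (170–310) CPM in the young library and 186 (156–221) CPM in the old. ILC2-like cells were above them by a log2 ratio of 0.45 (0.03–0.90) in the young and 0.75 (0.48–1.03) in the old library. With the mean of the CPM of each cell, the young ratio was 0.02, so the order of these classes in the young library depends on how deep cells are weighted.

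All other classes were far lower in *Il2ra*. CD4 T-like cells had 13.3 (5.35–27.4) and 17.7 (14.5–21.3) CPM, 23.9-fold and 17.8-fold below ILC2-like cells, and CD8 T-like cells had 8.71 and 6.20 CPM. Gamma-delta T-like cells of the young library had 54.2 (31.0–88.1) CPM. T-like cells without coreceptors had 76.5 (59.98–96.2) CPM in the young library and 9.36 (7.24–11.9) CPM in the old, NK or ILC1-like cells were at 14.9 and 12.2 CPM, and PT-like cells had 0.170 and 0.0921 CPM.

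*Il2rb* (ENSMUSG00000068227; chromosome 15, 78479256 to 78495271, minus strand), which serves both IL-2 and IL-15, peaked in another class. NK or ILC1-like cells were at 1029 (966–1096) CPM in the young library and 922 (877–968) CPM in the old, and 94.5% and 93.1% of cells had a UMI. CD8 T-like cells were at 236 (206–270) and 260 (249–271) CPM, a 4.36-fold and 3.55-fold lower level. Some other T-like classes, given below, had levels between these in each library. ILC2-like cells had 20.03 (17.2–23.2) and 29.6 (22.6–38.1) CPM, 51.4-fold and 31.2-fold below NK or ILC1-like cells. PT-like cells had 0.554 and 0.8596 CPM, so *Il2rb* in ILC2-like cells was low and still above background. Its log2 ratio in ILC2-like cells was 0.56 (0.11–0.99) in all cells, 1.45 in cells with *Xist* and −0.29 in cells with Y-linked UMIs, so the direction depended on this choice.

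Among T-like cells, regulatory T-like cells had 157 (107–222) and 277 (239–318) CPM of *Il2rb*, and gamma-delta T-like cells of the young library had 454 (381–538) CPM. CD4 T-like cells were at 101 (75.5–132) CPM in the young library and 227 (216–240) CPM in the old, with intervals apart and a log2 ratio of 1.17 (0.78–1.60). This ratio was 2.10 in cells with *Xist*, where the young library had 4 *Il2rb* UMIs, and 0.89 in cells with Y-linked UMIs. T-like cells without coreceptors had 263 (232–298) CPM in the young library and 135 (126–144) CPM in the old. B-like cells had 2 UMIs in the young and 24 in the old library, at 1.46 (0.18–5.26) and 19.1 (12.2–28.3) CPM, too few for the limit of 30 UMIs set for a ratio.

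*Il2rg* (ENSMUSG00000031304; chromosome X, 101264378 to 101268255, minus strand), the shared chain, was detected in ILC2-like, T-like, NK or ILC1-like and B-like cells. Levels in these classes ran from 197 to 426 CPM in the young library and from 233 to 527 CPM in the old. ILC2-like cells were highest, with 426 (412–440) CPM in the young library and 527 (496–559) CPM in the old, a log2 ratio of 0.31 (0.21–0.40). The ratio was 0.28 in cells with *Xist* and 0.32 in cells with Y-linked UMIs. CD4 T-like cells had 342 (294–396) and 344 (330–359) CPM, CD8 T-like cells 246 and 278 CPM, NK or ILC1-like cells 317 and 426 CPM and B-like cells 254 and 264 CPM. Regulatory T-like cells were at 197 and 371 CPM (log2 ratio 0.91, 0.42–1.44). T-like cells without coreceptors had 327 and 233 CPM, and gamma-delta T-like cells of the young library had 329 CPM. *Il2rg* in ILC2-like cells was 1.68-fold that of B-like cells in the young library and 1.998-fold in the old, and the old plasma-like cells had 11.6 (7.52–17.2) CPM.

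Myeloid-like cells had less *Il2rg*, and it was higher in the old library in each of their gates. Monocyte-like cells were at 55.3 (44.0–68.7) CPM in the young library and 142 (128–157) CPM in the old (log2 ratio 1.36, 1.01–1.72). Macrophage-like cells had 75.7 (50.3–109) and 155 (132–181) CPM (1.04, 0.45–1.67), and neutrophil-like cells had 45.4 (27.7–70.1) and 98.5 (79.7–120) CPM (1.12, 0.41–1.89). Intervals were apart in all 3 gates. The ratio in monocyte-like cells stayed between 1.28 and 1.68 under 9 alternatives, while that of macrophage-like cells lay between 0.73 and 1.90 and that of neutrophil-like cells between 0.64 and 1.18. Old cells of these gates were also deeper, with medians of 16829 against 9657 UMIs in monocyte-like, 14793.5 against 4477 in macrophage-like and 3803 against 2334.5 in neutrophil-like cells, and the part of depth in the result was not tested. PT-like cells had 0.465 and 0.8903 CPM.

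*Il7r* (ENSMUSG00000003882; chromosome 15, 9505788 to 9530176, minus strand), the IL-7 receptor alpha chain CD127 by which ILCs are commonly sorted, was highest in ILC2-like cells. They had 753 (735–772) CPM in the young library and 973 (931–1017) CPM in the old, and 92.5% and 94.9% of cells had a UMI, or 51.8% and 58.6% after thinning. The log2 ratio was 0.37 (0.30–0.44) and remained on that side in cells with *Xist* (0.23) and with Y-linked UMIs (0.42). CD4 T-like cells had 441 (386–502) and 442 (426–459) CPM and did not differ between libraries beyond counting error (log2 ratio 0.00, −0.19 to 0.20). Plasmacytoid dendritic-like cells came next in the old library, at 325 (280–375) CPM, and had 279 (240–324) CPM in the young library, with *Il7r* in 72.7% and 86.5% of cells. CD8 T-like cells had 219 (189–251) and 183 (174–193) CPM and regulatory T-like cells 207 (149–281) and 312 (272–356) CPM.

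Larger differences between the libraries were found in some classes with less *Il7r*. B-like cells were at 26.9 (19.0–37.1) CPM in the young library and 6.35 (2.74–12.5) CPM in the old, from 37 and 8 UMIs (log2 ratio −2.09, −3.40 to −0.96). This ratio was −1.40 with 1 more B-cell marker and −1.08 with the mean of the CPM of each cell. NK or ILC1-like cells were at 140 (117–166) and 56.7 (46.1–69.1) CPM (log2 ratio −1.30, −1.70 to −0.92). Requiring 1 more NK marker turned this direction, to 28.5 CPM in the young library and 38.5 CPM in the old (log2 ratio 0.44), so the *Il7r* of this gate depends on where it is drawn. Macrophage-like cells had no *Il7r* UMI in 73 young cells and 30 UMIs in 11 of 48 old cells, at 29.5 (19.9–42.1) CPM, which is at least 3.64-fold higher than a limit of 3 counts over the young class. One old macrophage-like cell held 13 of these UMIs. T-like cells without coreceptors were at 401 (362–444) and 108 (101–116) CPM, and PT-like cells at 0.742 and 0.537 CPM.

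**Figure D3:**
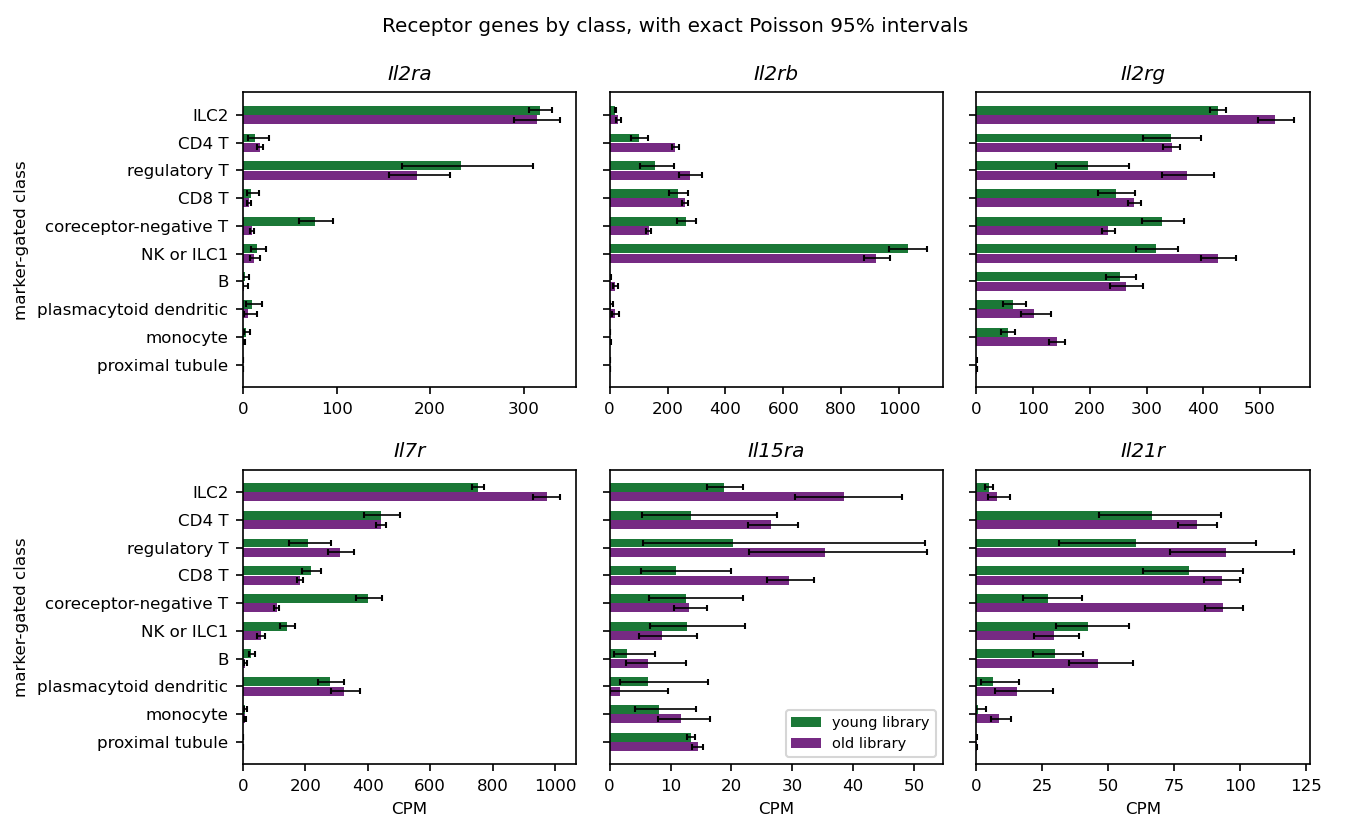
CPM of the 6 receptor genes in 10 classes, each panel with its own linear axis from 0, bars for the young (green) and old (purple) library and whiskers for exact Poisson 95% intervals. *Il2ra* and *Il7r* are highest in ILC2-like cells, *Il2rb* in NK or ILC1-like cells at 1029 and 922 CPM, and *Il21r* is low in ILC2-like cells and high in T-like cells.

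*Il15ra* (ENSMUSG00000023206; chromosome 2, 11705290 to 11734317, plus strand), 12.1 kb from *Il2ra* on the same strand, encodes the chain that presents IL-15 to neighbouring cells. PT-like cells were at 13.4 (12.7–14.1) CPM in the young library and 14.5 (13.5–15.4) CPM in the old, and 19.3% and 20.6% of cells had a UMI. Like *Il15*, it was higher in early than in late tubule cells, at 17.0 (15.7–18.4) against 8.87 (7.82–10.0) CPM in the young library and 16.2 (14.5–18.1) against 11.9 (10.3–13.7) CPM in the old. Young PT-like cells with *Xist* had 24.7 (22.1–27.6) CPM, and those with Y-linked UMIs 12.7 (11.9–13.5) CPM. In the old library these levels were 22.5 (19.5–25.7) and 14.2 (13.1–15.4) CPM. Early and late cells were not compared within these sets, so the part of this split in their difference was not tested. Other epithelium-like cells had 35.6 (19.9–58.7) and 23.1 (17.7–29.5) CPM, and endothelial-like cells of the young library had 26.5 (18.7–36.3) CPM. The genes of the cytokine and of its presenting chain were thus both detected in PT-like, other epithelium-like and endothelial-like cells.

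In ILC2-like and CD8 T-like cells *Il15ra* was higher in the old library. ILC2-like cells were at 18.8 (16.0–21.9) CPM in the young library and 38.4 (30.4–48.0) CPM in the old, with intervals apart and a log2 ratio of 1.03 (0.63–1.43), 1.24 in cells with *Xist* and 1.21 in cells with Y-linked UMIs. CD8 T-like cells had 10.9 (5.22–20.01) and 29.5 (25.9–33.5) CPM, a log2 ratio of 1.44 (0.54–2.52) that was 0.33 in cells with *Xist*, where the young library had 2 UMIs. CD4 T-like cells had 13.3 (5.35–27.4) and 26.6 (22.7–31.0) CPM, and the interval of the ratio included 0 (0.997, −0.08 to 2.33). B-like cells, as background, had 2.91 and 6.35 CPM from 4 and 8 UMIs. In NK or ILC1-like cells the levels were 12.7 and 8.68 CPM.

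*Il21r* (ENSMUSG00000030745; chromosome 7, 125603429 to 125633570, plus strand) was detected in T-like, NK or ILC1-like, B-like and macrophage-like cells. CD8 T-like cells had 80.5 (63.2–101) and 92.9 (86.4–99.8) CPM, CD4 T-like cells 66.6 (46.4–92.6) and 83.6 (76.6–91.2) CPM and regulatory T-like cells 60.7 (31.4–106) and 94.6 (73.3–120) CPM. The intervals of these classes overlapped in both libraries. B-like cells were at 29.9 (21.4–40.5) CPM in the young library and 46.0 (35.0–59.5) CPM in the old, and macrophage-like cells had 46.0 (26.8–73.6) and 79.6 (63.3–99.0) CPM. NK or ILC1-like cells were at 42.4 (30.3–57.8) CPM in the young library and 29.5 (21.98–38.8) CPM in the old, and gamma-delta T-like cells of the young library had 37.3 CPM from 11 UMIs. ILC2-like cells were low, at 4.84 (3.48–6.54) and 7.88 (4.51–12.8) CPM, 13.8-fold and 10.6-fold below CD4 T-like cells. T-like cells without coreceptors had 27.3 (17.8–39.9) CPM in the young library and 93.5 (86.5–101) CPM in the old, and PT-like cells had 0.0894 and 0.200 CPM. The old plasma-like cells had 2 *Il21r* UMIs, 0.930 CPM.

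Receptor chains act together, so UMIs of several chains were counted in the same cells. *Il7r* with *Il2rg* was found in 79.2% of the young ILC2-like cells and 83.7% of the old, against 41.6% and 45.8% of CD4 T-like cells. Thinned to 1000 UMIs ILC2-like cells kept 17.4% and 24.3% and CD4 T-like cells 3.96% and 9.63%. For *Il2ra* with *Il2rg* the shares before thinning were 63.3% (60.8–65.6%) and 66.2% (61.0–71.1%) in ILC2-like cells against 36.7% (19.9–56.1%) and 33.0% (24.4–42.6%) in regulatory T-like cells. The ILC2-like cells were deeper, with medians of 5129.5 against 3657 UMIs in the young and 5432 against 5108 in the old library. When *Il2rb* was required as well, for all chains of the high-affinity IL-2 receptor, the order was turned, with 4.06% (3.14–5.16%) and 7.89% (5.30–11.2%) of ILC2-like and 20% (7.71–38.6%) and 25.0% (17.3–34.1%) of regulatory T-like cells. After thinning, all 3 chains remained in 2 young and 1 old ILC2-like cells and in 0 young and 2 old regulatory T-like cells, too few to order the classes. *Il2rb* with *Il2rg* was found in 62.3% and 84.3% of NK or ILC1-like cells and in 18.5% and 20.8% after thinning. None of these combinations was found in more than 0.147% of PT-like cells.

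Ratios between the libraries were set against all genes of the same class with at least 30 UMIs, of which a gene at least 2-fold apart is counted here. In ILC2-like cells, 8 members had enough UMIs, and *Il15ra* was at least 2-fold higher and *Il2* at least 2-fold lower in the old library, while 9.51% of all genes were that far apart either way. The median log2 ratio was 0.47 over these members and −0.01 over all genes. In CD4 T-like cells, *Il21* and *Il2rb* were higher among 8 members, against 13.6% of all genes, with medians of 0.37 and 0.12. *Il21* was itself among the 10 leading genes of the old CD4 T-like class.

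In CD8 T-like cells, *Il2* and *Il15ra* were at least 2-fold higher among 7 members, against 10.9% of all genes, and *Il2* rested on 2 young UMIs (log2 ratio 1.19, −0.76 to 4.28). No member of 5 was that far apart in regulatory T-like cells (11.3% of all genes), and none of 7 in PT-like cells (8.71%). *Il7r* was lower in NK or ILC1-like cells, the only one of 5 members (6.25% of all genes), and in B-like cells, the only one of 3 (10.6%). *Il2rg* was higher in monocyte-like cells, 1 of 3 members (6.64%), in neutrophil-like cells, 1 of 2 (11.2%), and in macrophage-like cells together with *Il7r*, 2 of 3 (22.5%). Each of these counts rests on 8 genes or fewer. Of the 11 ratios counted here that have alternatives, 4 stayed past 2-fold under each that gave a ratio (*Il2* in ILC2-like, *Il21* in CD4 T-like, *Il2rg* in monocyte-like and *Il7r* in B-like cells), and 7 did not under at least 1. For *Il21*, cells with *Xist* gave only the bound of 0.24 stated above.

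**Figure D4:**
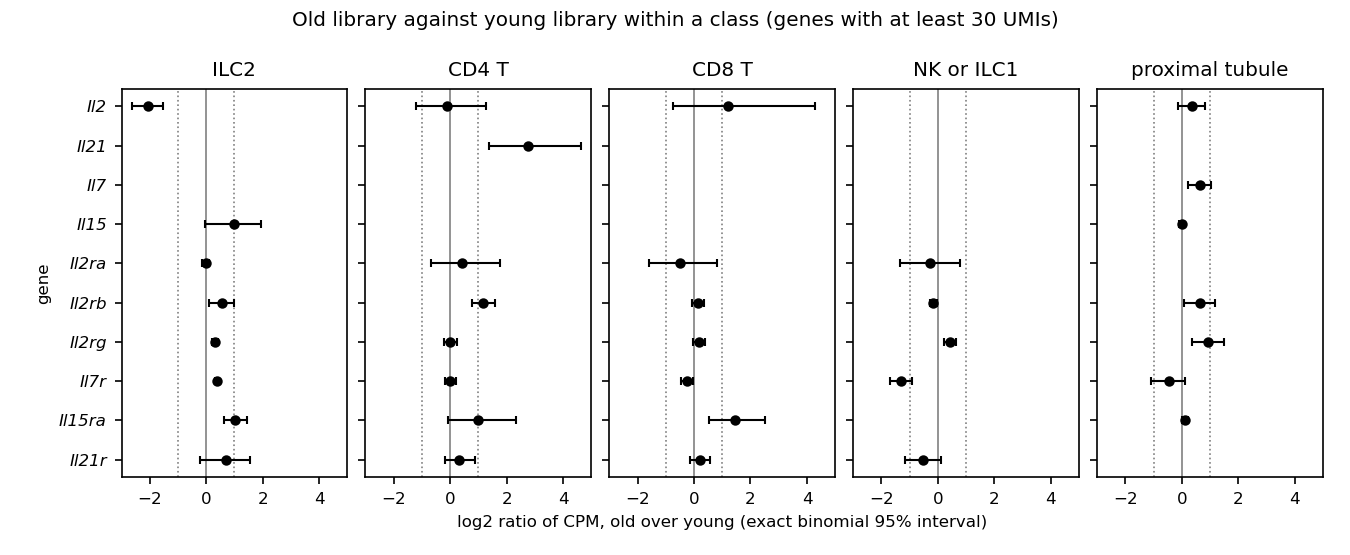
Log2 ratio of CPM, old over young library, of the members with at least 30 UMIs in 5 classes, with exact binomial 95% intervals, a solid line at 0 and dotted lines at 2-fold. *Il2* in ILC2-like cells (−2.05) and *Il21* in CD4 T-like cells (2.76) lie farthest from 0, and no member of PT-like cells passes 2-fold.

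The other genes of the pathway were taken from a list of 19, with the remaining gamma chain cytokines and receptors, *Jak1*, *Jak3*, STAT genes, the feedback inhibitors *Cish* and *Socs1* to *Socs3* and the survival genes *Bcl2*, *Bcl2l1* and *Mcl1*. In ILC2-like cells 1 of 17 measured genes was at least 2-fold apart, beside 9.51% of all genes, and the list thus did not exceed this background. It was *Socs3*, an inhibitor induced by STAT signalling, at 11.3 CPM in the young library and 30.5 CPM in the old (log2 ratio 1.44, 0.95–1.91). *Socs3* was also higher in CD4 T-like cells, at 85.6 and 232 CPM (1.44, 1.01–1.90), and in CD8 T-like cells, at 41.4 and 96.0 CPM (1.22, 0.75–1.73). The inhibitor gene *Socs2* was higher in CD4 T-like cells, at 19.0 and 70.3 CPM (1.89, 0.99–2.96). *Jak3*, the kinase bound to the gamma chain, had 19.0 and 40.0 CPM there (1.07, 0.17–2.15), and *Il4ra* was lower in the old library, at 78.0 and 30.8 CPM (−1.34, −1.83 to −0.82).

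Counted over the classes, 3 of 15 measured pathway genes were at least 2-fold higher and 1 lower in CD4 T-like cells, where 13.6% of all genes were that far apart either way. In CD8 T-like cells 2 of 15 were higher (10.9% of all genes apart) and in NK or ILC1-like cells 1 of 14 was lower (6.25%), both close to the share over all genes. In regulatory T-like cells 7 of 14 were higher (11.3% of all genes apart). Macrophage-like cells had 3 of 9 lower and none higher (22.5%), and B-like cells 2 of 13 higher and 1 lower (10.6%). None of 13 was apart in monocyte-like cells (6.64%), and 1 of 9 was higher in neutrophil-like cells (11.2%). Plasmacytoid dendritic-like cells had 2 of 9 higher (4.14%) and other epithelium-like cells 3 of 13 (13.3%). PT-like cells had 5 of 15 genes higher (8.71% of all genes apart), among them *Socs1*, at 0.474 and 4.30 CPM (log2 ratio 3.18, 2.75–3.63), and *Stat3*, at 16.2 and 40.3 CPM (1.32, 1.23–1.40). The median log2 ratio of the list was 0.23 in ILC2-like, 0.54 in CD4 T-like, 0.98 in regulatory T-like and 0.34 in PT-like cells. Over all genes these medians were −0.01, 0.12, 0.06 and 0.01. The list was at 0.08 in CD8 T-like, 0.12 in NK or ILC1-like and 0.04 in monocyte-like cells, beside 0.06, −0.10 and −0.02. Its median was below 0 in macrophage-like (−0.38), B-like (−0.18) and neutrophil-like cells (−0.07), beside 0.04, −0.11 and −0.05 over all genes. The regulatory T-like values rest on 30 young cells.

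The genes whose levels across classes were most like those of *Il2ra*, *Il2rb*, *Il7r*, *Il21r* and *Il15* were ranked by Pearson's r of log2(CPM + 1) over 31 class and library combinations among 14297 genes. The points share 2 libraries and are not independent, and r is a description. *Fsd2* (0.89), *Dnajb13* (0.88) and *Xlr4a* (0.87) were most like *Il2ra*, and the cytotoxic cell genes *Ctsw* (0.97) and *Nkg7* (0.95) and *Gm14029* (0.95) were most like *Il2rb*. For *Il7r* they were *Tespa1* (0.93), the lymphocyte surface gene *Thy1* (0.90) and *Tnfrsf18* (0.89), and for *Il21r* they were *Gbp8* (0.86), *Rhoh* (0.86) and *Slamf6* (0.85). *Ralb* (0.88), *Cyb5r1* (0.82) and *Cpd* (0.82) were most like *Il15*. Ranked by Spearman's rho, *Ctsw*, *Tespa1* and *Ralb* kept the first place, and *Slamf6* was first for *Il21r*. For *Il2ra*, *Xlr4b* (0.91) was first by rho, and *Fsd2*, *Dnajb13* and *Xlr4a* had ranks 2, 12 and 15.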

How the data were processed

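Single-cell RNA-seq of 2 libraries was used, 1 per age of MRL-*lpr* mice. The deposited matrices hold counts of UMIs per gene and barcode, which the authors made with Cell Ranger (3.1.0 in the file header) on mm10 without normalization. After removal of barcodes under 200 genes or over 20% mitochondrial UMIs, there were 11429 of 15076 young and 10232 of 12622 old, with 145647185 and 119218130 UMIs.

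The members and gene lists were chosen with earlier results of these data known. Classes were gated by the number of fixed markers with a UMI (4 of 11 for ILC2, for example) and by a bar on other lineages, under a rule set after the data were seen. No gate held 10.1% of young and 7.98% of old cells, and 5.14% of each library passed several. T gates were split by *Cd4*, *Cd8a*, *Foxp3* and gamma-delta genes. *Gata3*, *Il1rl1*, *Icos*, *Areg*, *Il5* and *Il13* are among the markers of the ILC2 gate. Classes of at least 20 cells are described.

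CPM has exact Poisson intervals, shares exact Clopper-Pearson intervals and log2 ratios exact binomial intervals, all at 95%. Cells were thinned to 1000 UMIs, leaving out shallower ones. A zero was set at 3 counts. A ratio counted as apart was at least 2-fold with at least 30 UMIs over both libraries. Named genes were the 10 members, up to 6 pathway genes past 2-fold first with counts for the rest, the 3 genes most like each of *Il2ra*, *Il2rb*, *Il7r*, *Il21r* and *Il15*, and a fixed list in cells with *Il2* or *Il21*. Alternatives were no bar, 1 more marker, doublets removed, at most 10% mitochondrial UMIs, at least 500 genes, abundant genes left out, the mean of each cell's CPM, cells by *Xist* or Y-linked UMIs, and thinning to 500 or 2000. Scripts used Python 3.11.15, Scanpy 1.11.5 for Scrublet, SciPy 1.17.1, NumPy 2.4.6, Matplotlib 3.10.9 and pandas 2.3.3, and the ratios were tested on simulated data. Gene positions are of GENCODE M21.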

Additional observations from a re-analysis of the deposited data

How the results depend on the processing

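No paired analysis was possible because each age has 1 library. Of 89 values computed under alternatives for the 14 main ratios, 74 stayed within the interval of the value given and 15 did not. In cells with *Xist*, log2 ratios of old over young were −3.30 for *Il2*, 0.32 for *Il2ra*, 1.45 for *Il2rb* and 0.23 for *Il7r* in ILC2-like cells, 0.14 for *Il15* in PT-like cells and 0.17 for *Il2rb* in NK or ILC1-like cells. With Y-linked UMIs, *Il2rb* in ILC2-like cells was at −0.29. With 1 more marker, *Il2rb* in NK or ILC1-like cells was at 0.050 and *Il7r* there at 0.44. That *Il7r* ratio was the only one past 2-fold to change sign, and ratios under 2-fold changed sign too, such as those of *Il2rb* in ILC2-like and NK or ILC1-like cells given here. Between classes, *Il2ra* of ILC2-like over regulatory T-like cells was at 0.023 in the young and 0.44 in the old library with the mean of each cell's CPM, and at 1.33 in the young library without the bar on other lineages. Without that bar, *Il2rb* of NK or ILC1-like over CD8 T-like cells was at 2.48 and 1.98 and of CD8 T-like over ILC2-like cells at 2.98 and 2.57 in the young and old library. The cause was not tested. Shares of cells moved in all 90 values when cells were not thinned. Removal of doublets moved none of 54 ratios between libraries. *Il21* in young cells (10 UMIs) and *Il7* outside PT-like cells are at the limit of this depth.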

Other observations

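Some values fell outside the classes described. The mixed T gate held T-like cells with both coreceptor genes, or with *Foxp3* and a CD8 gene. One young cell of this gate held 17 *Il2* UMIs, all of those of the gate. Young cells that passed several gates held 78 *Il2* UMIs in 40 cells, up to 18 in 1 cell. The 95 old cells of the mixed T gate had 17 *Il2*, 18 *Il21* and 281 *Il2rb* UMIs. The ILC3-like gate found 14 young cells with 48 *Il7r*, 33 *Il2rg* and 16 *Il2rb* UMIs and 3 old cells with 31 *Il7r* UMIs. Basophil or mast-like cells, 17 young and 10 old, had 17 and 14 *Il7r* and 5 and 3 *Il15* UMIs. In young PT-like cells there were 88 *Il2* for 83 *Il7r* UMIs, while young ILC2-like cells had 530 for 6542.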
